A study of Mus musculus with 12 samples.

Results

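The genes described here encode proteins of the cytoplasmic ribosome. They were chosen by name: mouse symbols that start with Rpl or Rps and go on with a number and at most a letter a, x or y, together with Rplp0, Rplp1, Rplp2 and Rpsa. Pseudogenes, paralogs whose names end in l, and genes on the X chromosome were left out. The rule found 72 of the 27095 genes in the count tables, 43 of the large subunit and 29 of the small subunit. It used no measured value, but was set with earlier results of these data known. Each ribosome is built from ribosomal RNA and many of these proteins, so growing cells transcribe the genes together and at high rates. Their promoters usually lack a TATA box and start transcription at a C within a run of pyrimidines, and the resulting 5' terminal oligopyrimidine (TOP) motif ties translation of the mRNAs to the mTOR pathway. Acetylated lysine 14 of histone H3 (H3K14ac) is a chromatin mark found around promoters, and HBO1, the product of Kat7, is an acetyltransferase that places it.

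The mark was mapped with an H3K14ac antibody by ChIP-seq, the sequencing of immunoprecipitated chromatin, in NSPCs (neural stem and progenitor cells) of the mouse. The cells came from cortices and ganglionic eminences of E14.5 embryos and grew as neurospheres (proliferating) or on laminin in a cortical neuron medium (differentiating). The 12 libraries were 3 WT H3K14ac libraries per stage and, per stage, 1 WT input, 1 IgG control, whose genotype the labels do not give, and 1 H3K14ac library from Hbo1 null cells, which the series describes as lacking the mark. The column headers name each input after WT replicate 1 of its stage, and it served here as the control of all 3 replicates. The labels of input and IgG also carry the H3K14ac antibody. They do not say how Hbo1 was deleted, nor which culture or foetus a replicate number stands for, beyond 4 WT foetuses for the series, so a p-value speaks of library to library spread, and that spread may be technical. In bulk chromatin, fewer cells with a mark and less mark per cell cannot be told apart.

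Each gene had a read count over its whole body and a count over a window of 1000 bases at its transcription start. Levels are given as CPM, the counts per 1e6 counts over all gene bodies of a library. Gene body totals were 3992697 to 7611239 in the proliferating WT libraries, and 12549913 to 17074249 in the differentiating ones. Input held 11871306 and 12689734, and IgG 2526252 and 2771713. The Hbo1 null libraries held only 64071 (proliferating) and 320601 (differentiating). The median ribosomal protein gene window thus had 12, 10 and 22 counts in WT proliferating libraries and 24, 21 and 28 in WT differentiating libraries, which limits what can be said of a single gene. Over autosomal gene bodies, proliferating replicate 1 stood apart from the other two (chi-square per degree of freedom 4.53 and 3.42, against 1.41 between replicates 2 and 3), and differentiating replicates 1 and 3 were the least alike of their group (2.98, against 1.83 and 1.31). The summed gene body level of the Y-linked genes Ddx3y, Kdm5d, Uty and Eif2s3y was 22.9 CPM in proliferating replicate 1 and 120 CPM in differentiating replicate 3, against 3.98 to 5.56 CPM in the other WT libraries. Both inputs were at 3.20 and 3.86 CPM, and IgG at 120 and 134 CPM (proliferating first). The proliferating input thus lay well below WT replicate 1, after which it is named, while the differentiating input lay near its own (3.98 CPM). Both IgG libraries lay far above the inputs. Why these libraries differ was not tested. The shallow Hbo1 null libraries were at 31.2 and 78.0 CPM. All members are autosomal, and what this difference between libraries does to their values was not tested beyond leaving libraries out. Without proliferating replicate 1 the summed windows described below were at 2.07 of input in proliferating cells, and without differentiating replicate 3 at 1.27 in differentiating cells. The windows of 7 of 9 neural stem and progenitor markers, such as Sox2 and Nes, were called above input over both stages. Of all windows 11.6% were. Also called were 1 of 4 astrocyte markers, 1 of 4 oligodendrocyte lineage markers and the 1 neuron marker tested. Of 3 microglial, 3 endothelial, 2 mesenchymal and 2 blood markers and 2 lineage factors silent in forebrain, 0 were called higher. These numbers are too small to set against the share of all windows.

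The ribosomal protein genes were short, with a median length of 3018 bases against 12110 over all genes, and lay on 18 chromosomes, with 14 of the genes on chromosome 7. The window thus covered much of each gene, and in Rps27 and Rpl36, of 1000 bases or less, all of it. Small nucleolar RNAs (snoRNAs), which guide ribosomal RNA modification, lay inside 27 of the 72 genes. How the authors treated reads that match several places is not given in the sources used here. Ribosomal protein genes have many processed pseudogenes, which copy exons and not promoters, so counts over exons are uncertain.

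The RefSeq promoter table (GRCm38.p6) held 62 promoters of 52 of the 72 genes, each of 300 bases from 250 before to 50 after a start. Stretches from 70 bases before to 30 after the start are shown for 6 genes whose windows stood furthest above input by p in proliferating cells (among genes with exactly 1 promoter), to show the kind of promoter that the windows adjoin. Capitals mark GGGCGG on either strand (the GC box bound by Sp1) and CCGGAAG (the site class of ETS factors such as GABP). Near the start they mark pyrimidine tracts of the TOP kind, spelled CTTTC, or in another spelling CTTCC, or in the last one CTCTT.
Rps6, chr4:86857338-86857437, minus strand: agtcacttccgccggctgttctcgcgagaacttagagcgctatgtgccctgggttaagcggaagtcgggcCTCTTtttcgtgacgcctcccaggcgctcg
Rpl13, chr8:123102280-123102379, plus strand: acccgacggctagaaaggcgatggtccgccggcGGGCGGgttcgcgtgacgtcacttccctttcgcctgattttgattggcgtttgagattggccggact
Rpl11, chr4:136053364-136053463, minus strand: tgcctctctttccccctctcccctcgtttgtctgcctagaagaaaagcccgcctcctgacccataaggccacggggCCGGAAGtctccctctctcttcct
Rps16, chr7:28350619-28350718, plus strand: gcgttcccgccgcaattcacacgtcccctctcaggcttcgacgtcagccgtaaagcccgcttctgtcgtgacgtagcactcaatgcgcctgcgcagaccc
Rpl14, chr9:120571447-120571546, plus strand: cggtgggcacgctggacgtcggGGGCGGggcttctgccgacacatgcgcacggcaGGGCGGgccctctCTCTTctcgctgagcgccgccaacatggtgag
Rpl35, chr2:39005102-39005201, minus strand: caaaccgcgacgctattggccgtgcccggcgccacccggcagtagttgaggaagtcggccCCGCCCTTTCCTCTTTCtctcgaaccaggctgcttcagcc
The stretches of Rps6, Rpl14 and Rpl35 carry a pyrimidine tract within 10 bases of the start and begin transcription at C in this annotation. GGGCGG stands at 2 places in Rpl14, at 1 in Rpl13 and on the other strand in Rpl35, Rpl11 has CCGGAAG just inside the transcript, and Rps16 has no marked motif in the stretch. For Rpl11 the gene length in the count table differs from RefSeq's, as for 21 of the 72 genes in all, so its counted window may begin elsewhere.

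Across the 62 promoters of 300 bases, letters were searched on both strands. GGGCGG was present in 59.7% of them, against 35.7% of all 32851 promoters. CCGGAAG stood in 37.1% against 8.86%, AANATGGC (the core of the YY1 site) in 22.6% against 6.05%, and CACGTG (the E-box of MYC and MAX) in 12.9% against 7.15%. TATAAA was rarer, in 6.45% against 13.6%. A first transcribed base C was annotated for 32.3% against 16.3%, and a pyrimidine tract of the 3 spellings on the sense strand within 10 bases of the start for 32.3% against 8.31%. By a GC content of at least 50% and an observed to expected CpG ratio of at least 0.6, 82.3% were rich in CpG, against 33.5% of all. These are matches of letters in short windows, and no factor was measured.

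In proliferating WT cells the starts of the ribosomal protein genes carried about 2 times the input signal, and the rest of the same genes carried less than input. The summed windows of the 72 genes held 196, 199 and 218 CPM in the 3 proliferating WT libraries, against 101 CPM in input and 110 CPM in IgG. All 3 WT libraries lay above both controls. Relative to input the sum was 2.03 ± 0.121 (SD, n = 3), against 1.42 ± 0.0549 for the windows of all genes. The gene bodies outside the windows summed to 138, 131 and 134 CPM in the same libraries, against 204 CPM in input and 199 CPM in IgG. This is 0.657 ± 0.0168 (SD, n = 3) of input. Over all genes the bodies outside windows stood at 0.985 ± 0.00193 of input, a value that the scaling to gene body totals largely fixes. Gene by gene, the median log2 difference outside the windows was -0.54 over 58 members tested and -0.18 over all genes tested.

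In differentiating WT cells the same windows summed to 140, 114 and 122 CPM, against 100 CPM in input and 71.4 CPM in IgG. No differentiating library reached the lowest proliferating one, and all 3 still lay above both controls. Relative to input the sum was 1.25 ± 0.129 (SD, n = 3), against 1.07 ± 0.0682 over all genes. The 2 controls gave different pictures of the stage: relative to IgG the sum was 1.86 ± 0.111 in proliferating and 1.76 ± 0.181 in differentiating cells (SD, n = 3 each), ranges that overlap. The IgG window sum itself was below input in differentiating cells, at 0.713 of it (95% interval 0.617 to 0.819, counting error only), and was 1.09 of it in proliferating cells (0.968 to 1.23). With 1 library per control and stage, a stage effect and a library effect in the controls cannot be told apart. Outside the windows the differentiating WT libraries held 160, 151 and 144 CPM, or 0.756 ± 0.0408 (SD, n = 3) of input and 0.987 ± 0.0531 of IgG.

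The Hbo1 null libraries had 3 counts over all 72 windows in proliferating and 26 in differentiating cells. These are 46.8 and 81.1 CPM, or 0.465 (0.0958 to 1.36) and 0.809 (0.529 to 1.19) of input (95% intervals, counting error only). Both estimates were below every WT library of the same stage. The upper bound lay below the lowest WT ratio in proliferating cells (1.94) and above it in differentiating cells (1.14). In these libraries 69 and 52 of the 72 windows were at 0, a depth at which no single gene can be compared. The gene body of Kat7 itself had 4 and 11 counts there, and the tables do not isolate the deleted part, so the genotype was not checked.

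**Figure D1:**
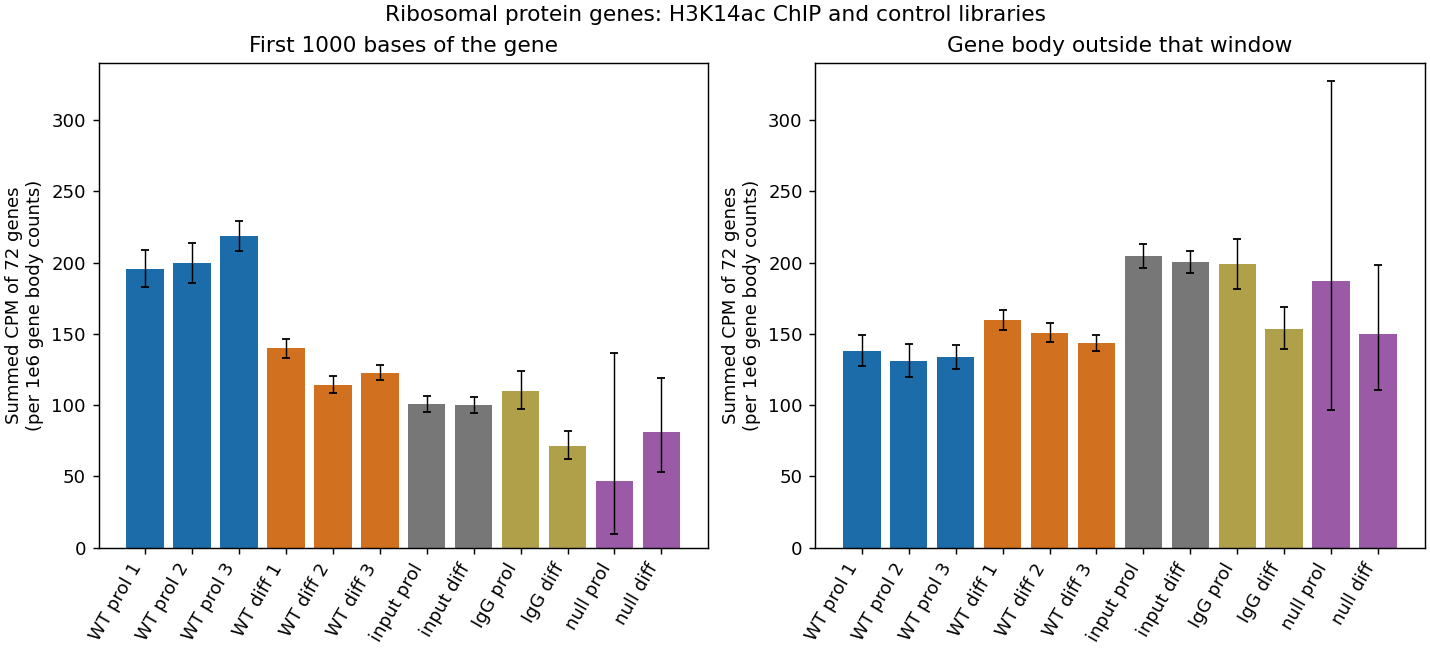
Summed CPM (vertical axis) of the 72 ribosomal protein genes in each of the 12 libraries (horizontal axis), over the first 1000 bases (left) and the rest of the gene body (right). Bars are libraries, whiskers 95% Poisson intervals for counting error, prol is proliferating and diff is differentiating. Left, the 3 proliferating WT bars at 196 to 218 stand above all others; right, the WT bars at 131 to 160 are below the input bars at 200.2 and 204.

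The share of a gene's counts that falls in its window compares 2 places in the same gene and does not use the library total. Summed over the 72 genes it was 58.7, 60.4 and 62.0% for WT proliferating libraries and 46.7, 43.2 and 46.1% for WT differentiating libraries. Input was at 33.0 and 33.4%, IgG at 35.6% (proliferating) and 31.8% (differentiating). The null libraries gave 20.0% (3 of 15 counts, exact 95% interval 4.33 to 48.1%) and 35.1% (26 of 74 counts, 24.4 to 47.1%). The WT shares were thus above both controls at both stages, and higher in proliferating than in differentiating cells with no overlap between stages. Among the 70 genes over 1000 bases, the share was above input in all 3 proliferating WT libraries in 61 (87.1%), against 49.8% of all genes with values. In the 3 differentiating libraries it was above input in 48 (68.6%), against 41.9%. All 3 proliferating libraries exceeded all 3 differentiating ones in 27 genes, against 28.1% of all genes, and the reverse held in 0, against 2.7%. The 27 genes are 38.6% of the 70.

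**Figure D2:**
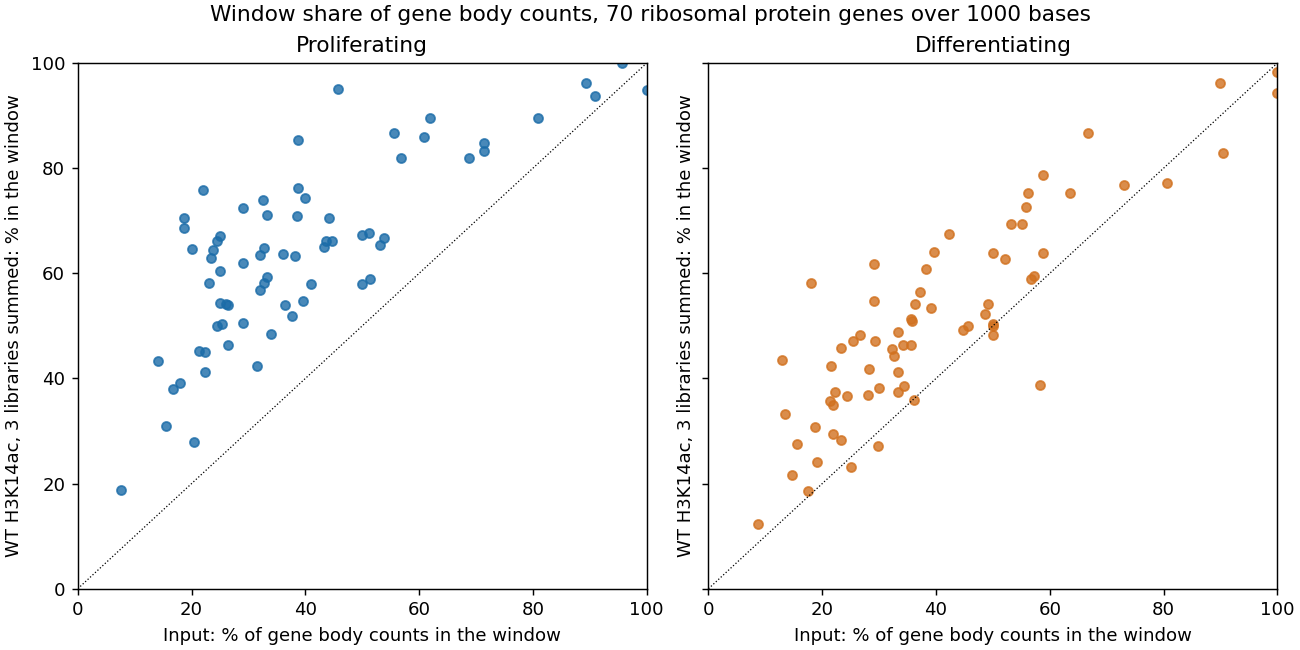
Percent of each gene's body counts that lie in its window, in input (horizontal axis) and in the 3 WT H3K14ac libraries of the stage summed (vertical axis), for 70 ribosomal protein genes. Points are genes and the dotted line marks equality; 69 points lie above it in proliferating and 60 in differentiating cells.

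Gene by gene, 26 of the 72 windows were called above the proliferating input and 0 below it, by an edgeR test over all windows (adjusted p below 0.05). Of all windows tested, 17.7% were called higher and 0.524% lower. The log2 difference was above 0 in 71 of 72 members, with a median of 0.95 against 0.45 over all windows. By direction alone, 56 of 72 windows (77.8%) had all 3 WT libraries above input, against 46.7% of all windows, and 44 (61.1%) were above both input and IgG in all 3, against 35.8%. With TMM scaling, which centres the bulk of windows, all windows had a median of -0.04 and 1452 were called higher and 509 lower, where gene body totals gave 3825 and 113. The members called were then 8 (11.1%, against 6.74% of all windows), and their median 0.46. With IgG in place of input 3 of 71 were called (4.23%), no more than the 4.33% of all windows, and the median IgG window had 4 counts. Their median was then 1.01, against 0.86 over all windows. Without proliferating replicate 3, the deepest of its group, 14 were called (19.4%, against 11.2% of all windows). Without proliferating replicate 1 or differentiating replicate 3 there were 24 (33.3%, against 15.9% and 17.9%).

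Small subunit genes gave the largest single value. Rps6, a substrate of the mTOR-regulated S6 kinases, had 2.42, 5.01 and 4.60 CPM in the proliferating WT libraries, against 0.590 CPM in input and 2.38 CPM in IgG. Its log2 difference from input was 2.76 (SE 0.56, adjusted p = 8.66e-05). The input value rests on 7 counts, the lowest of any member, and WT replicate 1 lay next to IgG. Rps14, deleted in human 5q- syndrome, had 4.40, 4.51 and 3.68 CPM against 1.10 in input and 0.792 in IgG (log2 1.90, SE 0.48, adjusted p = 0.00144), with every WT library above both controls. Rps16, a protein near the decoding region, had 2.64, 2.25 and 4.07 CPM against 0.842 and 1.19 CPM (log2 1.90, adjusted p = 0.00223). Rps27a, made as a fusion with ubiquitin, had 2.42, 4.51 and 2.63 CPM against 0.927 and 1.98 CPM (log2 1.71, adjusted p = 0.00756). Rps19, the gene most often mutated in Diamond-Blackfan anaemia, had 4.84, 2.51 and 3.55 CPM against 1.52 and 1.19 CPM (log2 1.26, adjusted p = 0.0318). Rpsa, also known as the laminin receptor, did not pass, with 2.64, 3.76 and 3.68 CPM against 2.19 and 1.58 CPM (log2 0.63, adjusted p = 0.342). Rps12 was the one member with a negative value, at 1.98, 1.00 and 1.18 CPM against 1.43 CPM in input (log2 -0.07, adjusted p = 0.949).

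Of the 43 large subunit genes 16 were called, with a median log2 of 1.01, and of the 29 small subunit genes 10, with a median of 0.81. Rpl13 had 4.40, 4.01 and 3.29 CPM in proliferating WT libraries, against 0.758 in input and 1.58 in IgG (log2 2.31, SE 0.53, adjusted p = 0.000408). Rpl10a, a protein of the stalk beside the exit site of tRNA, had 7.26, 4.76 and 3.68 CPM against 1.35 and 0.792 CPM (log2 1.90, adjusted p = 0.000956). For both genes all WT libraries exceeded both controls. Rpl19, a protein near the exit tunnel, had 3.74, 6.26 and 5.65 CPM against 1.69 and 0.792 CPM (log2 1.63, adjusted p = 0.00516). It had the highest mean of all 72 windows over the 6 WT libraries, at 3.99 CPM. Rpl14 had 4.84, 1.75 and 1.84 CPM against 0.758 in input (log2 1.81, adjusted p = 0.00646), but IgG, on 6 counts, was at 2.38 CPM, above WT replicates 2 and 3.

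Rpl5 and Rpl11 are proteins of the 5S particle, which carries 5S ribosomal RNA, and like Rpl23 they bind the p53 regulator Mdm2 when ribosome assembly fails. Of these 3 genes 1 was called, and differences between them were not tested. Rpl11 had 3.74, 2.51 and 4.73 CPM against 0.927 in input (log2 2.03, SE 0.50, adjusted p = 0.00111), with IgG, on 7 counts, at 2.77 CPM, inside the WT range. Rpl5 had 3.74, 3.26 and 3.81 CPM against 1.77 in input and 1.58 in IgG. All its WT libraries were above both controls, yet it did not pass (log2 1.04, SE 0.44, adjusted p = 0.085). Rpl23 had 2.42, 4.01 and 2.63 CPM against 2.02 in input and 2.77 in IgG, inside the WT range (log2 0.54, SE 0.45, adjusted p = 0.453). In the stalk that recruits translation factors (Rplp0, Rplp1, Rplp2 and Rpl12), 0 of 4 were called, with a median log2 of 0.84. Rplp0, the stalk base, had 1.76, 2.25 and 2.10 CPM against 1.10 in input and 1.58 in IgG (log2 0.89, adjusted p = 0.217). Rplp1 had 1.32, 2.00 and 2.10 CPM against 1.69 in input (log2 0.14, adjusted p = 0.885). Rpl3, at the peptidyl transferase centre, had 0.881, 1.00 and 2.10 CPM against 1.43 in input (log2 0.04, adjusted p = 0.969), overlapping the control. Of 10 proteins around the exit tunnel 3 were called, of 9 along the mRNA path and decoding side 1, and of 20 Diamond-Blackfan anaemia genes 5, where 17.7% of all windows were called. None of these groups was tested against all windows. The windows of 27 snoRNA hosts had a median log2 of 0.95 with 11 called, and those of the 45 others 0.99 with 15 called, and without hosts and without genes that overlap another gene the summed windows were at 2.04 of input.

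In differentiating cells 0 of 72 windows passed the edgeR test against input, and of all windows 0.0835% were called higher and 0.00464% lower. With IgG in place of input the count was also 0. The median log2 of the members was 0.38 against 0.09 over all windows, and 56 of 72 were above 0. In 38 windows (52.8%) all 3 libraries were above input, against 33.3% of all windows, and in 30 (41.7%) above both controls, against 22.0%. Rpl10a had the highest value, with 2.55, 2.19 and 2.17 CPM against 0.552 CPM in input (log2 2.03, SE 0.56, adjusted p = 0.119). That input value rests on 7 counts, and IgG was at 2.17 CPM, level with replicates 2 and 3. Rpl21 had 1.75, 2.11 and 2.23 CPM against 0.709 in input (log2 1.51, adjusted p = 0.272), and Rpl12 2.07, 1.17 and 0.996 CPM against 0.552 (log2 1.30, adjusted p = 0.376). Rpl13 stood at log2 0.89 (adjusted p = 0.506) and Rpl6 at 0.99 (adjusted p = 0.484). The lowest were Rpl22 at -0.61, Rpl8 at -0.52 and Rpl30 at -0.49, none of which passed. Over IgG these 3 were at 1.80, 1.63 and 0.12, and Rpl12 and Rpl6 at -0.39 and -0.45, so the sign of these 5 values turned with the control. In the same order they rest on only 1, 1, 3, 5 and 6 IgG counts.

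**Figure D3:**
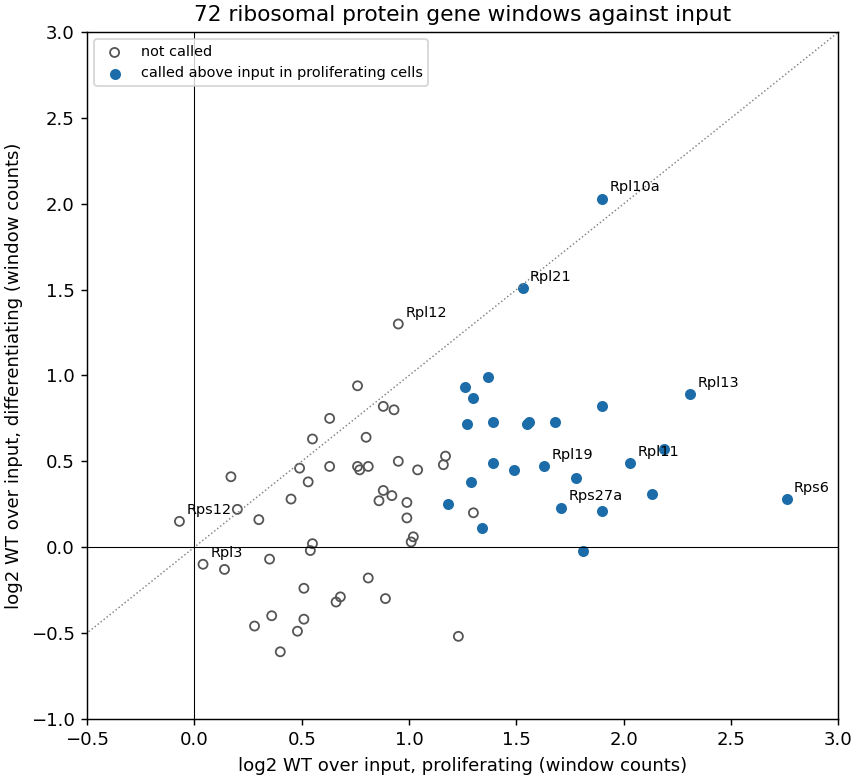
Log2 difference of each of the 72 windows from input in proliferating (horizontal axis) and differentiating cells (vertical axis). Points are genes, filled where called in proliferating cells, and the dotted line marks equal values; 71 points lie right of 0 and 56 above it, and Rpl10a and Rpl21 are high on both axes.

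The distance of a gene from input varied with its count in the input library. Over the 72 genes the proliferating log2 difference had a correlation of -0.71 (Spearman -0.72) with the input count, which is also its denominator, and the differentiating one -0.75 (-0.73). Input counts of the 2 stages had a correlation of only 0.27 over the genes. The pooled WT levels of the 2 stages had one of 0.68, and pooled proliferating WT level and input count 0.01. These are descriptions over genes that share libraries. The variance of input counts over the 72 genes was 1.37 and 1.39 times their mean, against 1.65 to 2.17 times in the 6 single WT libraries, where sampling alone gives 1. This ratio grows with the mean count, which was 16.6 and 17.7 in input and 11.1 to 29.1 in the WT libraries.

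The WT levels of the windows ran from 1.31 to 3.99 in mean CPM over 6 libraries, with a median of 2.21 and a coefficient of variation over genes of 24.0%. The median of all windows was 1.29 CPM. Every window is 1000 bases, apart from Rps27 (982 bases) and Rpl36 (852 bases), whose whole gene is shorter, so the levels of the other members can be set beside each other. Among the highest were Rpl19 (3.99 CPM), Rpl10a (3.77), Rps6 (3.30) and Rpl18 (3.16), whose libraries overlapped within each stage. Rpl18 had 2.64, 6.26 and 4.07 CPM in proliferating and 1.91, 1.80 and 2.28 CPM in differentiating libraries. The lowest were Rps25 (1.44 CPM), Rpl3 (1.36) and Rpl8 (1.31), neighbours that did not differ beyond their spread. The 5 fullest windows took 11.3% of all member counts in proliferating and 9.83% in differentiating cells.

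Over both stages together, 15 of 72 windows were called above input and 0 below, against 11.6% and 0.881% of all windows. The median log2 was 0.65 against 0.25. Rpl10a led (log2 1.96, SE 0.43, adjusted p = 0.000747), followed by Rpl21 (1.51, adjusted p = 0.00567) and Rpl13 (1.52, adjusted p = 0.00583). Rps14 (1.37), Rpl6 (1.17), Rpl15 (1.15), Rps6 (1.18), Rpl11 (1.17) and Rps29 (1.16) were also called. These calls rested on the proliferating input: without it 0 were called, against 0.12% of all windows, and without the differentiating input 26 (36.1%, against 18.9%). Without differentiating replicate 1, without proliferating replicate 3 and with TMM the count was 5 each time (6.94%), next to 7.79, 6.98 and 6.47% of all windows, so the members' larger share of calls was not seen there. Their median stayed above that of all windows, by 0.43, 0.40 and 0.41. Against IgG 1 of the 71 windows tested was called (all windows, 5.13% higher and 0.205% lower), with a median log2 of 0.94 against 0.67. The window called was Rpl18 (log2 2.41, SE 0.70, adjusted p = 0.0246), where IgG had 2 and 1 counts. It was not called without the proliferating IgG library, without proliferating replicate 2, with TMM or with DESeq2.

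Over whole gene bodies 3 genes were called above input, Rpl36 (log2 0.84), Rpl10a (0.83) and Rps29 (0.84), and 2 below, among them Rpl22 (-0.69). Of all bodies 8.43% were higher and 21.3% lower. Rpl36 and Rps29 are among the shortest genes of the set, so most or all of their body is window. Against IgG 0 bodies were called in either direction (all bodies, 0.54% and 0.739%). Outside the windows, 16 of 58 genes tested were called below input and 0 above, a share near that of all genes, of which 29.4% were lower and 8.51% higher. The median log2 was -0.45 against -0.19, and 55 of 58 were below 0. Rps14 was at -1.03 (SE 0.26, adjusted p = 0.00959) and Rps7 at -0.91 (SE 0.21, adjusted p = 0.00741). Rps14, Rpl21 (-0.76 outside the window) and Rpl6 (-0.73) were thus called above input at the start and below it over the rest of the body. In proliferating cells alone 6 of 58 were called lower and 0 higher (all genes, 13.1% and 3.16%), in differentiating cells 0 in either direction (3.2% and 1.19%), and against IgG 0 of 48 in either direction (0.509% higher, 1.28% lower). The 16 calls became 4 with DESeq2, 9 with TMM and 0 without the proliferating input, where 9.73, 14.7 and 2.8% of all genes were lower.

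Between stages, the WT libraries were compared with each other and no control. Of the 72 windows 2 were called lower in differentiating cells and 0 higher, where 4.42% of all windows were lower and 2.04% higher. Rpl17, a protein at the exit tunnel, had 5.06, 3.26 and 3.42 CPM in proliferating and 2.23, 0.626 and 1.46 CPM in differentiating cells (log2 -0.92, SE 0.29, adjusted p = 0.0332). The stages did not overlap. These 2 calls were lost with DESeq2, with the replicate number as a block, and without differentiating replicate 2 or 3 or proliferating replicate 3. Rpl17 hosts 3 annotated snoRNAs. The median log2 of the 72 was -0.21, against 0.03 over all windows, and 53 were below 0.

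The size of the stage difference depended on the scaling. With gene body totals in place of TMM the median of all windows moved to -0.47, 64 windows were called higher and 4996 lower, where TMM gave 397 and 860, and 24 of the 72 members were called lower (33.3%, against 25.7% of all windows). The members' median was then -0.71, and their distance from the median of all windows was -0.24 under either scaling. By CPM, all 3 proliferating libraries exceeded all 3 differentiating ones in 40 windows (55.6%), against 33.7% of all, and the reverse held in 0, against 2.51%. Per total of window counts, which removes the overall shift, this held in 9 windows (12.5%), against 14.2% of all, among them Rpl10a, Rpl17, Rpl5, Rplp0 and Rps14. The reverse held in 1, Rps21, against 11.3%.

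Rpl10a (log2 -0.63, adjusted p = 0.132) and Rplp0 (-0.68, adjusted p = 0.252) came close to the called genes in size and did not pass. Rplp0 had 1.76, 2.25 and 2.10 CPM in proliferating and 0.797, 0.626 and 1.17 CPM in differentiating cells, without overlap. Rps19 (-0.51), Rpl5 (-0.40), Rpl11 (-0.36), Rps27a (-0.22), Rpsa (-0.17) and Rps6 (-0.15) did not pass either. Highest were Rps12 (0.62), Rps21 (0.42) and Rpl3 (0.41), which also did not pass and were at 0.13, -0.07 and -0.08 with gene body totals. Over gene bodies 0 of 72 were called (all bodies, 0.0366% higher and 0.126% lower), and DESeq2 called 1 lower (1.39%, against 0.59% of all bodies). The median was -0.33 against 0.00, led by Rps29 (-1.02, adjusted p = 0.125) and Rpl10a (-0.96, adjusted p = 0.141). Outside the windows 0 of 53 were called (all genes, 0.023% higher and 0.00919% lower), with a median of 0.14.

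**Figure D4:**
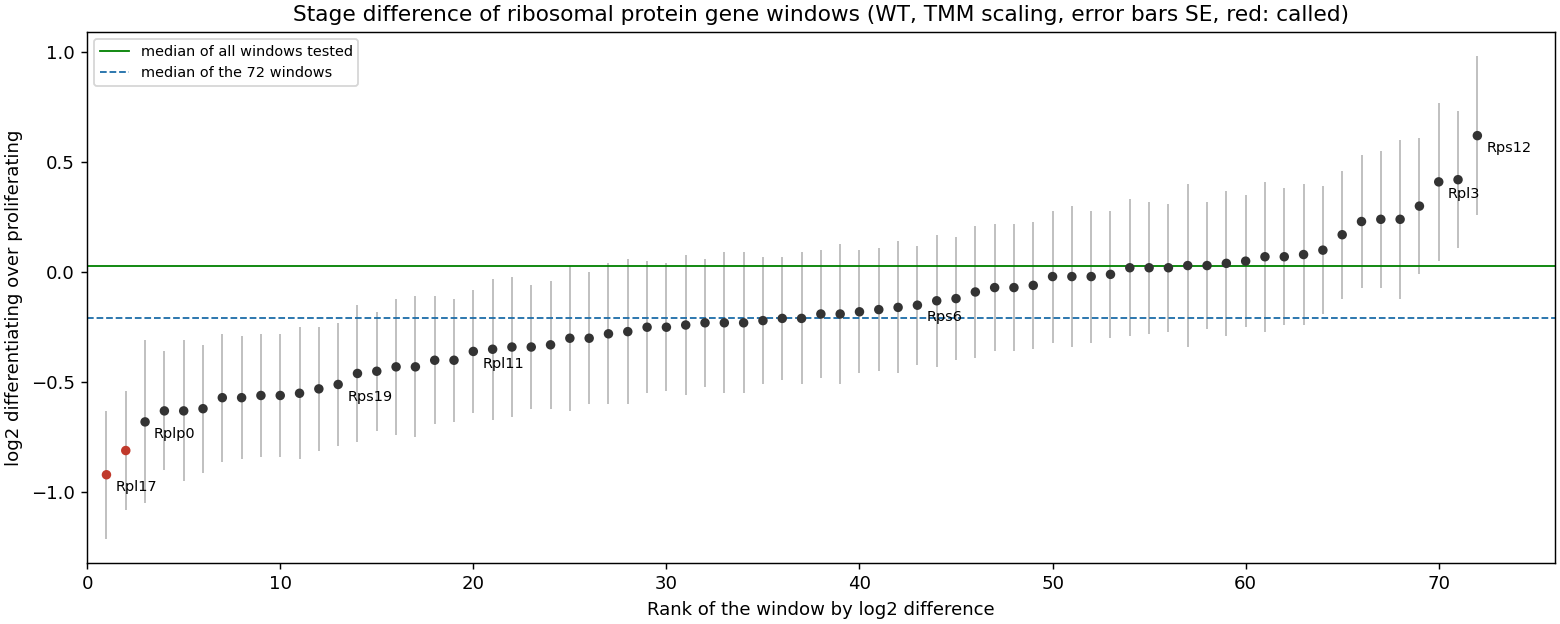
Log2 difference of differentiating over proliferating WT libraries (vertical axis) for each of the 72 windows (horizontal axis, rank from lowest to highest), with SE whiskers and the medians of the 72 and of all windows tested as lines. The 2 windows called are in red, with Rpl17 at the far left, and some genes described in the text are labelled; the 72 run from -0.92 to 0.62 with a median of -0.21, against 0.03 over all windows.

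The difference between stages in the ratio to input was tested as an interaction, which uses the same libraries. Of the 72 windows 0 were called in either direction (all windows, 0.0% higher and 0.0278% lower), and the median was -0.67 against -0.37. Rps6 had the lowest value (-2.47, SE 0.73, adjusted p = 0.145). Its WT libraries had a mean of 4.01 CPM (2.42 to 5.01) in proliferating and 2.59 CPM (1.72 to 3.43) in differentiating cells, ranges that overlap. Its input went from 7 counts to 27. Over IgG the value of Rps6 was 2.03, of the opposite sign, on 6 proliferating and 1 differentiating IgG counts. Leaving out differentiating replicate 1 gave 1 lower call (1.39%), where 0.313% of all windows were lower. With IgG in place of input the median of 71 members was -0.13, with 33 above 0 and 38 below, against -0.26 over all windows. The lower ratio in differentiating cells was thus seen in the sum and the median over input and not in the same way over IgG, where the members' distance from all windows went from -0.30 to 0.13, and with all libraries no single member passed the test over either control.

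Other genes of protein synthesis were set beside the ribosomal proteins, in lists chosen with earlier results of these data known. The list of translation initiation and elongation genes also holds Tpt1. The summed windows of 34 genes of translation initiation and elongation were at 2.34 ± 0.239 of input in proliferating and 1.24 ± 0.107 in differentiating cells (SD, n = 3 each), and 13 of 34 windows (38.2%) were called in proliferating cells, against 17.7% of all windows, with a median log2 of 1.10. Tpt1, whose mRNA is a classical TOP message, had 4.84, 5.51 and 6.31 CPM in proliferating and 1.59, 1.72 and 2.11 CPM in differentiating libraries (stage log2 -1.11, SE 0.27, adjusted p = 0.00395). Eif4h (-0.95), Eif3a (-0.90) and Eif5 (-0.87) were called lower too, 4 of 34 in all (11.8%, against 4.42% of all windows). The 78 mitochondrial ribosomal protein genes, whose products build the ribosome of the organelle, were at 1.60 ± 0.0282 and 1.07 ± 0.123, with 9 of 75 windows called in proliferating cells and a median of 0.71. This share of calls is below the 17.7% of all windows. Between stages 1 of their 73 windows was lower, Mrpl48 (-1.41, adjusted p = 0.000244), and 1 higher, Mrps22 (1.36, adjusted p = 0.0161).

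The 44 ribosome biogenesis genes were at 1.57 ± 0.0911 and 1.04 ± 0.0869 of input (SD, n = 3 each). In proliferating cells 7 of 42 were called (16.7%, against 17.7% of all windows), led by Ubtf (2.40), the RNA polymerase I factor, and Ncl (2.10), nucleolin. Between stages 0 of 39 were called, where 4.42% of all windows were lower and 2.04% higher. The 14 regulators of ribosome production were at 2.14 ± 0.143 and 1.26 ± 0.295, with 6 of 13 (46.2%) called in proliferating cells, among them Gabpa (2.18), Max (2.61) and Larp1 (1.81), which binds TOP mRNAs. Larp1 (-1.07) and Gabpa (-0.86) were lower in differentiating cells. Of 15 ribosomal protein genes that the name rule leaves out, 14 were tested and 2 (14.3%) called above proliferating input, Rpl22l1 (2.06) and Rps3a1 (1.19). No list was tested against another.

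**Figure D5:**
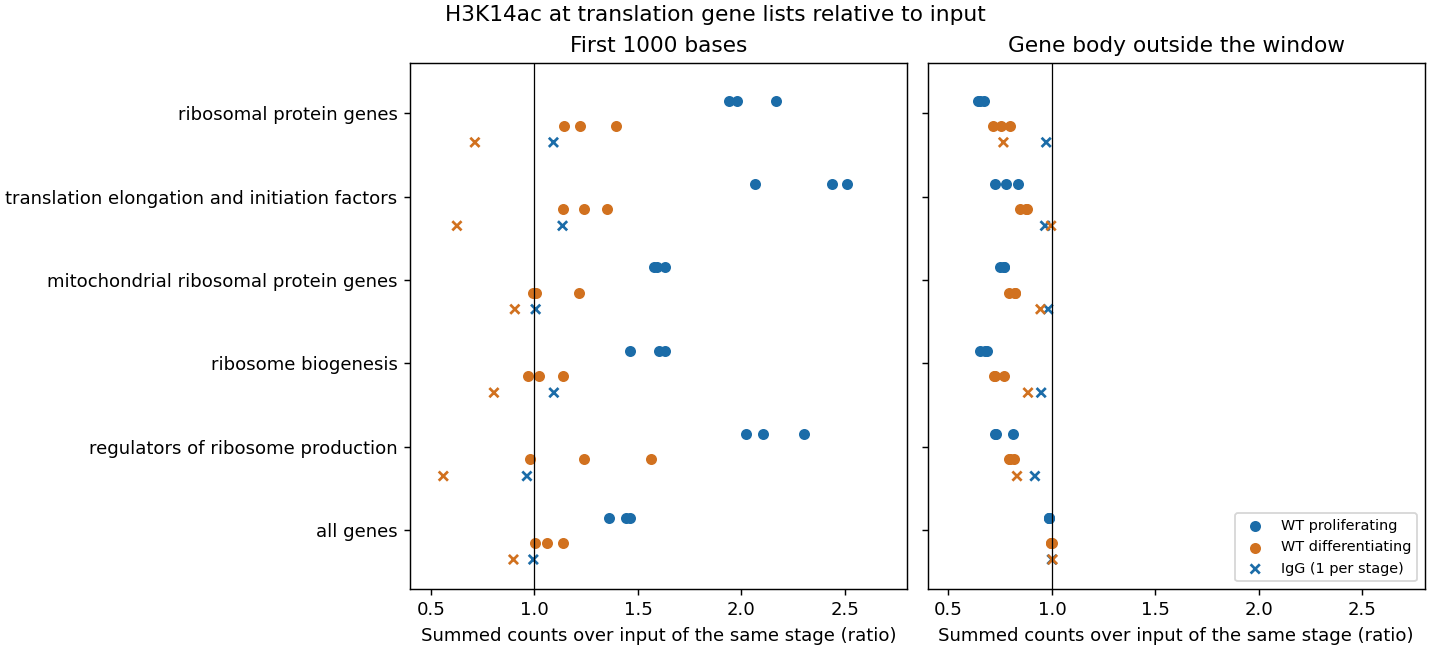
Summed counts relative to input of the same stage (horizontal axis, ratio) for 6 gene lists (vertical axis), in windows (left) and gene bodies outside them (right). Dots are WT libraries, crosses IgG (blue proliferating, orange differentiating), and the line at 1 is input; proliferating ribosomal protein windows lie at 1.94 to 2.17 and all genes at 1.42 on average.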

How the data were processed

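H3K14ac ChIP, input, IgG and Hbo1 null libraries were compared over 72 ribosomal protein genes. The deposited values are raw read counts per gene body and per window of 1000 bases at the transcription start. Reads were converted with bcl2fastq and counted with featureCounts on mm10, per the submitters' processing notes; the aligner is not given in the sources used here. All 24 files per sample equalled the 2 tables. Gene IDs were named through RefSeq (25204 of 27095 matched).

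CPM, window shares, and counts outside the window (body minus window, genes over 1000 bases, a comparison added after seeing the data) were computed from these counts. Tests were edgeR 4.0.16 quasi-likelihood fits (R 4.3.3), two-sided, over all features with a mean count of at least 10, with Benjamini-Hochberg adjustment and a threshold of 0.05. Stage fits used TMM. Control fits used gene body totals, with the lone control of a stage assumed to vary like the WT libraries. SE is the log2 difference over the root of the F statistic. The scripts were tested on simulated data. Alternatives were DESeq2 1.42.0, other scalings, no filter, left-out libraries, a replicate block and, added after seeing the data, IgG in place of input by stage.

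The members and gene lists were chosen with earlier results of these data known. Genes named were, per comparison, called members (up to 10 by p; if none, the 5 with smallest p), the 3 highest and lowest values, the 5 highest and 3 lowest levels, Rplp0, Rpsa, Rps6, Rpl5, Rpl11, Rps19 and Rps27a, and up to 4 genes of each other list; a few more are named where a value called for it, after values were seen. Results of some single genes that the rule names are not reported here. The labels do not state that same-numbered replicates are paired, so no pairing was used. Window deviations of same-numbered replicates had correlations of -0.01, -0.03 and 0.00. Chi-square per degree of freedom between replicates was 1.06 to 1.2 for autosomal windows, close to sampling alone. These correlations thus cannot show whether cultures were paired.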

Additional observations from a re-analysis of the deposited data

How the results depend on the processing

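The counts of called genes moved with scaling, tool and single libraries, no called value of a named gene changed sign, and some values that were not called did. For windows between stages, the 2 calls became 0 with DESeq2, where 2.92% of all windows were lower, and 24 with gene body totals (33.3%, against 25.7%). They ranged from 0 to 2 when a replicate was left out, where 1.27 to 4.67% of all windows were lower. With the replicate block there were 0 calls for windows (1.37% of all higher, 2.54% lower) and 0 for gene bodies (0.0733% and 0.0814%). For bodies DESeq2 gave 1, lower in differentiating cells (1.39%, against 0.59% of all bodies). The median stage difference of -0.21 became -0.71 with gene body totals and ranged from -0.30 to -0.11 without a replicate. For windows against input over both stages, the 15 calls became 8 with DESeq2, 5 with TMM, and 5 to 20 without a replicate. The 8 were 11.1% of the members, against 5.41% of all windows, and the 20 were 27.8%, against 13.2%. The median of 0.65 became 0.95 without the differentiating input and 0.38 without the proliferating input. For gene bodies against input, the 5 calls became 8 with TMM, 3 and 0 without the differentiating and the proliferating input, and 2 to 7 without a replicate. Against IgG, the 1 window called became 0 with DESeq2, with TMM and without the proliferating IgG, where 0.0076, 0.114 and 0.0% of all windows were higher. Without a replicate there were 0 to 2, where 2.74 to 9.14% of all windows were higher. For proliferating windows against input, the 26 calls became 8 with TMM (11.1%, against 6.74% of all windows) and 3 with IgG in place of input (4.23%, against 4.33%). Without a replicate there were 14 to 29 (19.4 to 40.3%), where 11.2 to 20.3% of all windows were higher. The stage difference over input gave 0 to 1 calls without a replicate, and in the fit with 1 call 0.313% of all windows were lower. Outside the windows, the 16 calls became 4 with DESeq2, 9 with TMM, 6 and 0 without the differentiating and the proliferating input, and 11 to 17 without a replicate. The summed windows over input, 2.03 in proliferating cells, were 1.86 over IgG and 1.90 without the 5 fullest windows; in differentiating cells 1.25 became 1.76 over IgG. Member medians changed sign too: for gene bodies over input 0.04 became -0.10 without the proliferating input, and outside the windows over IgG -0.13 became 0.03 without the proliferating IgG. The members' distance from all windows in the stage difference over input went from -0.30 to 0.13 with IgG in place of input. The cause of these shifts was not tested. Of 1875 recomputed values of named genes, 1662 kept direction and side of the threshold, 115 lost the call, 16 gained it, and 82 values that were not called changed sign.

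Depth limits single genes: a median window held 10 to 28 counts in WT libraries, 17 and 18 in input and 4 and 2 in IgG, and the null libraries left most windows at 0. Each control has 1 library per stage, so the fits borrow its spread from the WT libraries.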
